A study of Mus musculus with 16 samples.

Results

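A set of 10 genes for enzymes and a cofactor that build, lengthen and desaturate fatty acids was followed through wounds of diabetic and non-diabetic mice. They were Acly, Acaca, Fasn, Elovl3, Elovl6, Scd1, Scd2, Scd3, Scd4 and Thrsp, and every probe whose transcript accession is listed under a member symbol in RefSeq was taken, whatever its values. This gave 15 probes, out of 27427 named probes for 20832 symbols on the array, with 3 probes each for Scd3 and Acaca, 2 for Acly and 1 for each of the other genes. All of them were tested in every comparison, except that the dimmest Acaca probe was below the filter in some comparisons.

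RNA came from whole wounds with the surrounding intact skin, taken from female db/db mice and female WT mice. The db/db mice, 10 weeks old, were of the C57BLKS/J Iar strain with the genotype +Lepr db/+Lepr db. This mutation of the leptin receptor gene makes them obese and diabetic. The WT mice were C57BL/6J of 10 to 12 weeks, so that genotype, diabetes and strain background cannot be told apart. All mice had circular full-thickness wounds on the back under a hydrocolloid dressing. In the db/db + estrogen group the wounds were treated every day with estradiol benzoate diluted in sesame oil (0.75 μg/g/day), in the db/db + vehicle group with sesame oil alone, and in the db/db and WT groups with neither. Each of the 4 treatments was read on 2 arrays for day 7 and 2 arrays for day 14 after wounding, 16 arrays in all. The labels do not say that the 2 arrays of a group came from separate mice, and each mouse carried a wound on both sides, so p-values measure the spread between these arrays, which may be technical.

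Fatty acid synthesis in the cytosol starts when ATP citrate lyase (Acly) splits citrate to give acetyl-CoA. Acetyl-CoA carboxylase (Acaca) turns this into malonyl-CoA, and fatty acid synthase (Fasn) joins these units into palmitate. Elovl6 and Elovl3 lengthen the chains, the stearoyl-CoA desaturases (Scd1 to Scd4) place the first double bond, and Thrsp, also named Spot 14, is a small protein that is induced together with these enzymes in liver and fat. In skin the pathway is most active in the sebaceous glands that open into hair follicles and in fat cells of the dermis. Mice without Scd1 have shrunken sebaceous glands and sparse hair, and Elovl3 is known for its expression in sebaceous glands. SREBP, NF-Y, Sp1 and E-box factors are the known regulators that bind in front of many of these genes.

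The promoters of the 3 members with a wide range of levels and several matches to one regulator's motif are shown because these genes carry much of the description that follows. They were taken from RefSeq on build GRCm38.p6, from 250 bases before to 50 bases after the start of the gene, and 7 of the 10 members were in that table. Each is written 5′ to 3′ along the gene's own strand, with matches on either strand in capitals. For Scd3 the capitals mark the SREBP motif TCACNCCA, and for Fasn and Thrsp they mark the NF-Y motif CCAAT. The windows are chr19:44203038-44203337 on the plus strand for Scd3, chr11:120824498-120824797 on the minus strand for Fasn and chr7:97417501-97417800 on the minus strand for Thrsp.
Scd3 promoter: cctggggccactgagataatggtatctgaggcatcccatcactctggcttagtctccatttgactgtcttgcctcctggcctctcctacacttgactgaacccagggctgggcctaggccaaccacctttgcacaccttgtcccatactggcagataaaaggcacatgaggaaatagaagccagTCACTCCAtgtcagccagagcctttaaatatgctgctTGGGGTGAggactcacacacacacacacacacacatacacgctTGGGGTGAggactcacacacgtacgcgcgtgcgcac
Fasn promoter: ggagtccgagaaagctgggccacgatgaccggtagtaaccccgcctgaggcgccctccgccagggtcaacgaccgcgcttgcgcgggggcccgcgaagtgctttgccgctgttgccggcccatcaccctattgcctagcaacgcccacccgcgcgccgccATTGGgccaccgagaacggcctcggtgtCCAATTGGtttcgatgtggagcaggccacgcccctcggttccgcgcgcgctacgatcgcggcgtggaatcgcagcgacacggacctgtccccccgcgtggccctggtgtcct
Thrsp promoter: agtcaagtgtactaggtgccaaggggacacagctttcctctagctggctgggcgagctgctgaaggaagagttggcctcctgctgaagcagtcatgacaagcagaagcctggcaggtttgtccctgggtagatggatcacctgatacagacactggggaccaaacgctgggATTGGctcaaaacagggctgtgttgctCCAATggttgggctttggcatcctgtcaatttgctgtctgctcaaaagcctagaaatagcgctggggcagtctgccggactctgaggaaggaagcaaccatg
The 3 matches in the Scd3 window started 66 and 29 bases before the start of the gene and 15 bases after it, and the last 2 lie in copies of one repeated stretch. The Fasn matches started 90, 62 and 59 bases before the start, the last 2 overlapping on opposite strands, and the Thrsp matches 79 and 52 bases before it. TCACNCCA occurred in 4.36% of all 32851 promoters of that table and, among the 7 members listed, in Scd3 alone. CCAAT occurred in 37.4% of all promoters and in 3 of the 7 members (Acly, Fasn and Thrsp). The Sp1 motif GGGCGG occurred in 35.7% of promoters and in Acly, and the E-box CACGTG in 7.15% of promoters and in none of the 7 members. A match is a description of letters in this window, and no match is likewise only that. Scd3, Scd2, Scd4 and Scd1 follow each other on chromosome 19 with no other protein-coding gene between them, and Elovl3 lies on the same chromosome. Fasn, Acaca and Acly lie on chromosome 11, Elovl6 on chromosome 3 and Thrsp on chromosome 7.

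A level in this text is the log2 of the processed signal of a probe minus the log2 of the 75th percentile of its array, so that 0 is the 75th percentile. Probes differ in how brightly they glow, and no level of one probe is set against that of another. The 75th percentile ran from 1091 to 2548, between 70.1% and 79.0% of probes were well above background, and no spot was saturated. Of the 15 member probes, 14 were well above background on all 16 arrays, and the dimmest Acaca probe was on 12. The arrays of a labelled day were scanned apart from those of the other, so that day and scan cannot be told apart, and the fold changes that the study prints stand under the opposite day from the labels. The days are used here as labelled. Slide 1 held the first and slide 2 the second day 7 array of every group, slide 3 the 2 db/db day 14 arrays with 1 vehicle and 1 estrogen array, and slide 4 the rest. The skin markers were present throughout, with all 11 measured keratinocyte genes well above background in every group. In whole tissue, fewer cells of a type and less RNA per cell cannot be told apart.

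Differences between groups were tested with limma across all probes. A gene is called here when its brightest probe had an unadjusted two-sided p below 0.05 and a fold change above 2, and the adjusted p beside it is adjusted over all probes tested in that comparison. Errors of a log2 fold change are standard errors. With 2 arrays in each group, an exact permutation test of a single value could not go below a two-sided p of 0.333 so none is given, and the precision of all values is set by this small number of arrays.

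**Figure D1:**
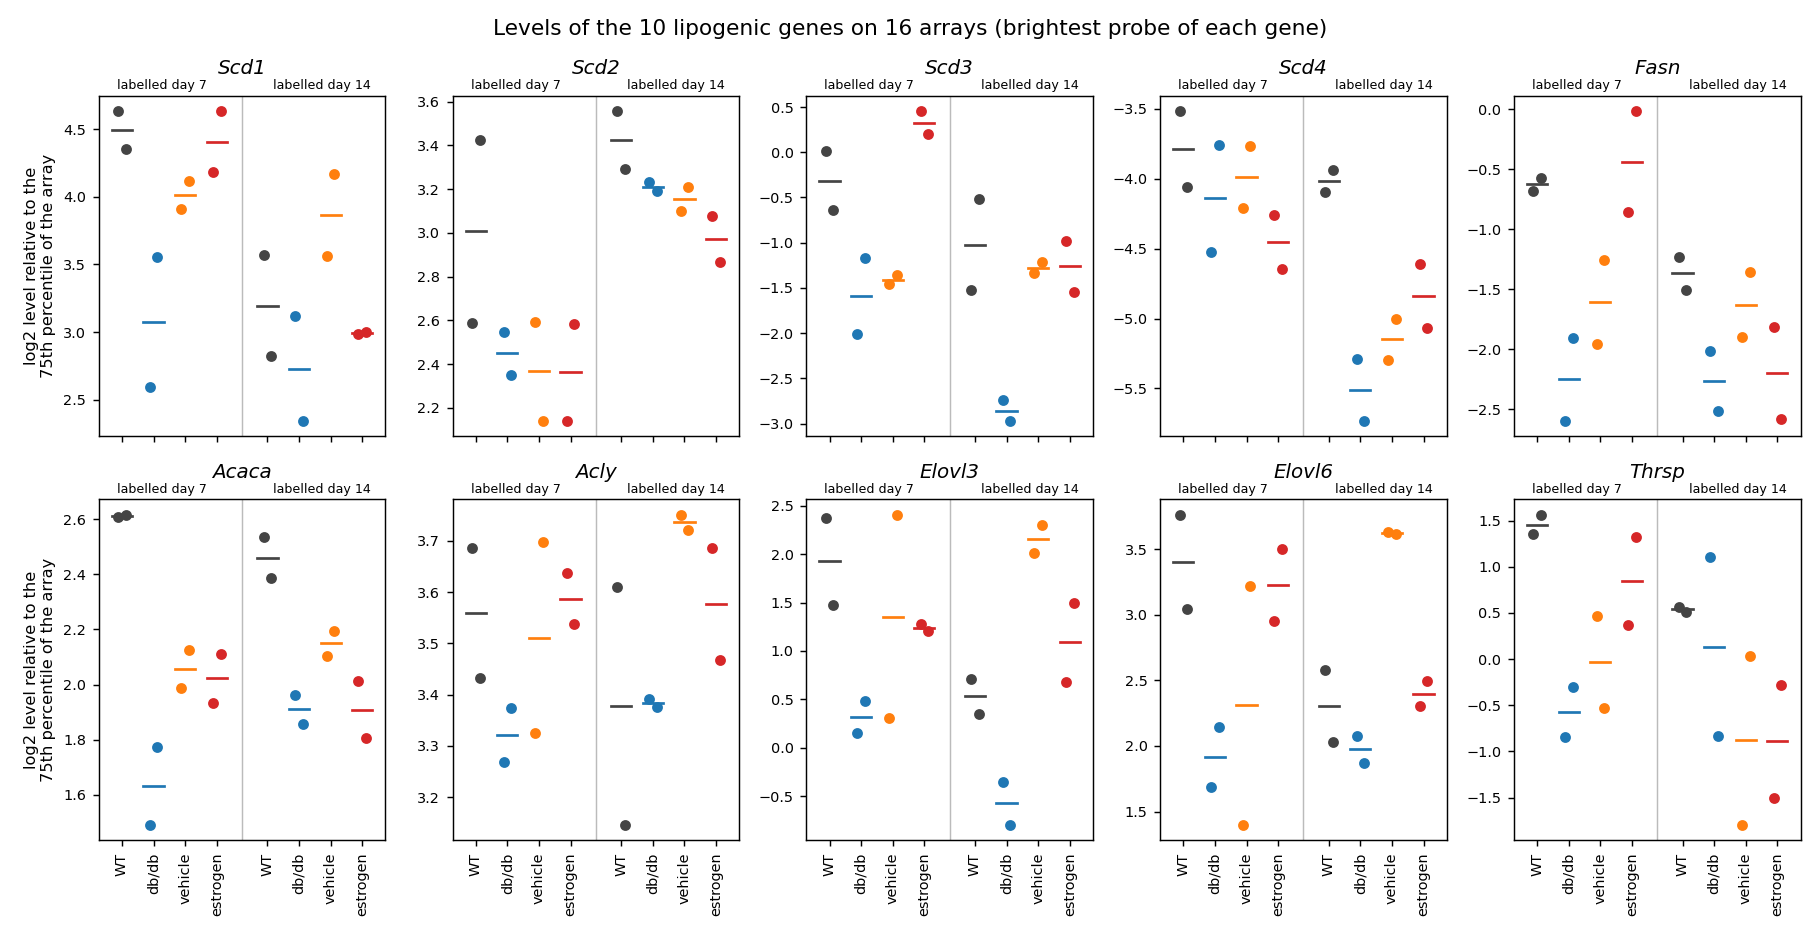
Log2 level of each of the 10 genes (brightest probe, relative to the 75th percentile of the array) on the 16 arrays, with 2 points for each group and a line at their mean. Scd3 is highest in the estrogen group of labelled day 7 (0.45 and 0.20) and lowest in db/db of labelled day 14 (−2.74 and −2.97), and the vertical scale differs between genes.

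On their brightest probes the first steps of the pathway varied little and Fasn varied more. Acly ran from 3.15 to 3.75 over the 16 arrays, a 1.52-fold range, and Acaca from 1.49 to 2.62, a 2.18-fold range. Their dimmer probes had wider log2 ranges, from −4.45 to −2.63 for the second Acly probe, −5.07 to −3.12 for the second Acaca probe and −8.36 to −5.59 for the dimmest. Fasn stood at −0.68 and −0.57 in WT, −2.60 and −1.91 in db/db, −1.96 and −1.26 with vehicle and −0.86 and −0.02 with estrogen on labelled day 7. Its labelled day 14 levels were −1.23 and −1.50 in WT, −2.02 and −2.52 in db/db, −1.90 and −1.36 with vehicle and −1.82 and −2.58 with estrogen. The estrogen and WT arrays of day 7 were the 4 highest, and both untreated db/db groups and the estrogen group of day 14 shared the lowest place. Between neighbours in the order of group means, the arrays of WT day 7 and WT day 14 did not overlap, and the arrays of every other pair of neighbours did.

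Scd1, the main desaturase of skin and liver, stood at 4.63 and 4.36 in WT, 2.59 and 3.56 in db/db, 3.91 and 4.12 with vehicle and 4.18 and 4.63 with estrogen on labelled day 7. Its day 14 levels were 3.57 and 2.82 in WT, 3.12 and 2.34 in db/db, 3.56 and 4.17 with vehicle and 2.98 and 3.001 with estrogen. Untreated db/db lay below the other 3 treatments on day 7, and the vehicle arrays lay above the db/db and estrogen arrays on day 14. The estrogen and vehicle groups of day 7 were the only neighbours in the order of group means whose arrays did not overlap. Scd2, which is widely expressed and prominent in brain, ran from 2.14 to 3.56, a 2.67-fold range. Scd4, best known from heart, ran from −5.73 to −3.52, a 4.64-fold range.

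Scd3, a desaturase known from sebaceous gland and harderian gland, had the widest range of the 10 genes, 10.7-fold on its brightest probe (A_55_P2052759). On labelled day 7 this probe read 0.01 and −0.64 in WT, −2.01 and −1.17 in db/db, −1.45 and −1.36 with vehicle and 0.45 and 0.20 with estrogen. The day 14 arrays read −1.53 and −0.51 in WT, −2.74 and −2.97 in db/db, −1.34 and −1.22 with vehicle and −0.98 and −1.54 with estrogen. The estrogen arrays of day 7 lay above every other array, and the db/db arrays of day 14 below every other array. Between those, the vehicle groups of day 14 and day 7 did not overlap, and the arrays of the other neighbours in the order of group means did.

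The other 2 Scd3 probes gave the same order on day 7 for WT, db/db and estrogen but not the same sizes. Probe A_55_P2099594 read −1.72 and −1.93 in WT, −4.08 and −3.68 in db/db, −3.33 and −2.95 with vehicle and −1.62 and −1.63 with estrogen on labelled day 7. Its day 14 arrays read −3.06 and −3.37 in WT, −3.76 and −4.52 in db/db, −2.53 and −2.05 with vehicle and −3.52 and −3.38 with estrogen. On this probe the vehicle arrays of day 14 lay above the estrogen arrays, whereas on the brightest probe they overlapped. Probe A_51_P446045 read −2.22 and −2.24 in WT, −5.69 and −5.10 in db/db, −6.33 and −4.85 with vehicle and −0.28 and −0.47 with estrogen on labelled day 7. For day 14 it read −4.46 and −4.72 in WT, −5.78 and −5.28 in db/db, −3.83 and −2.63 with vehicle and −2.94 and −3.02 with estrogen. Here the estrogen arrays of day 7 lay far above all others. These are called the second and the dimmest Scd3 probe below. The sequences of the probes were not used here, so which part of the transcript each reads, and whether any takes up transcripts of the other desaturases, was not tested.

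**Figure D2:**
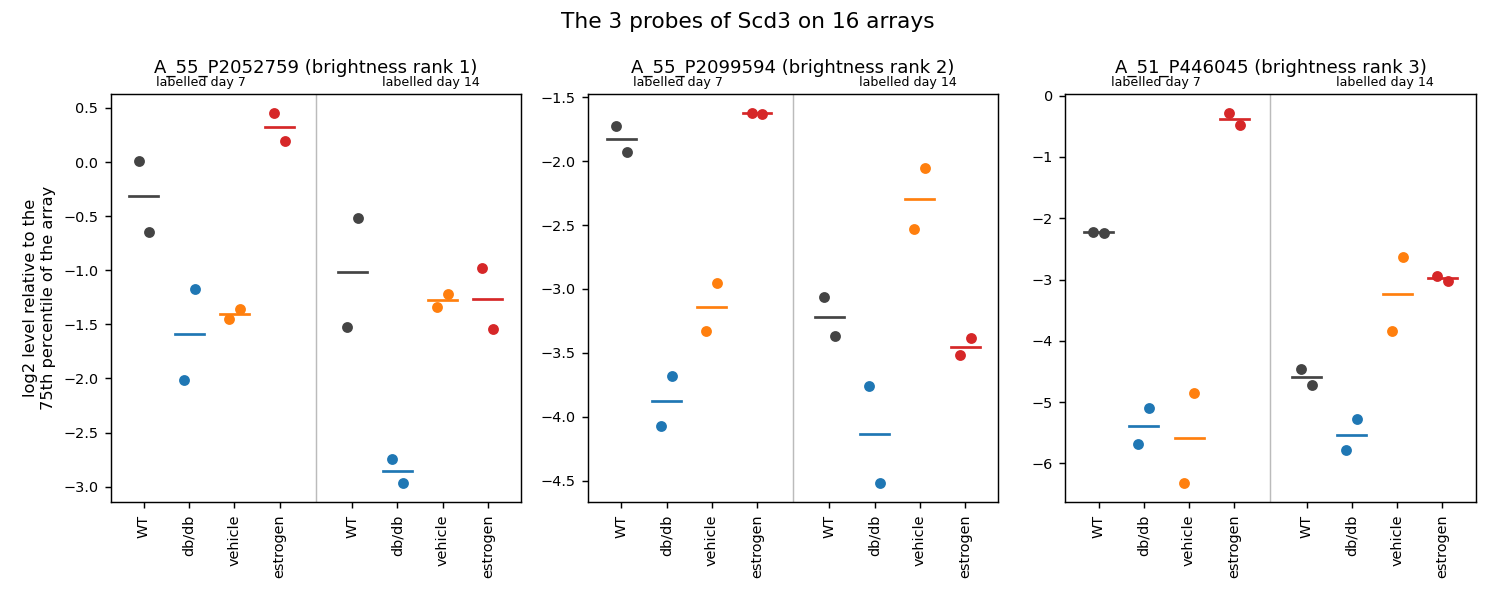
Log2 level of the 3 Scd3 probes (relative to the 75th percentile of the array) on the 16 arrays, 2 points for each group with a line at their mean, each probe on its own vertical scale. On every probe the estrogen arrays of labelled day 7 lie above db/db and vehicle of that day, by 5.01 on the log2 scale over db/db on probe A_51_P446045 and by 1.92 on probe A_55_P2052759.

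The elongases split their vehicle arrays on day 7. Elovl3 stood at 2.37 and 1.48 in WT, 0.15 and 0.49 in db/db, 0.31 and 2.41 with vehicle and 1.28 and 1.21 with estrogen on labelled day 7. Its day 14 levels were 0.71 and 0.35 in WT, −0.35 and −0.79 in db/db, 2.01 and 2.30 with vehicle and 0.68 and 1.5001 with estrogen. The vehicle arrays of day 14 lay above all others of that day, whereas on day 7 the vehicle arrays held both a low and the highest value. Elovl6 stood at 3.76 and 3.05 in WT, 1.68 and 2.14 in db/db, 1.40 and 3.22 with vehicle and 2.95 and 3.50 with estrogen on labelled day 7. The day 14 levels were 2.58 and 2.03 in WT, 2.08 and 1.87 in db/db, 3.63 and 3.62 with vehicle and 2.30 and 2.49 with estrogen. Vehicle again stood above the rest of day 14. Neighbours in the order of group means overlapped except for db/db of day 7 and day 14 in Elovl3 and estrogen of day 7 and day 14 in Elovl6. The 2 vehicle arrays of day 7 differed in the same direction in the wax ester synthase Awat1 (−0.78 and 1.52) and in Dgat2l6 (−1.31 and 0.88), both genes of the sebaceous list, so that the second array was the higher.

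Thrsp stood at 1.35 and 1.56 in WT, −0.85 and −0.30 in db/db, 0.47 and −0.53 with vehicle and 0.37 and 1.32 with estrogen on labelled day 7. The levels of day 14 were 0.56 and 0.51 in WT, 1.11 and −0.84 in db/db, −1.79 and 0.03 with vehicle and −1.50 and −0.28 with estrogen. Its arrays of one group lay apart more than those of any other member, with a pooled SD of 0.82 against 0.12 for Acaca, and on day 14 the db/db arrays spanned those of WT.

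The first comparison asked how diabetic wounds differed from WT wounds. On labelled day 7, 6 of the 10 genes were lower in db/db and none was higher, where 8.49% of all probes tested were called lower. Fasn was 3.09-fold lower (log2 fold change −1.63 ± 0.39, adjusted p = 0.0219), Scd1 2.68-fold (−1.42 ± 0.38, adjusted p = 0.0335) and Scd3 2.42-fold (−1.27 ± 0.37, adjusted p = 0.0451). Elovl3 was 3.04-fold lower, Elovl6 2.81-fold and Thrsp 4.08-fold, with adjusted p-values of 0.0854, 0.0679 and 0.0914. Acaca had a log2 fold change of −0.98 ± 0.14 (adjusted p = 0.00246), just short of a 2-fold change. All 10 log2 fold changes were below 0, with a median of −1.35 against −0.05 over all probes.

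The smaller changes belonged to Scd2 (−0.56, 95% interval −1.16 to 0.04), Scd4 (−0.35) and Acly (−0.24). The second Acly probe gave −1.03 (adjusted p = 0.0609) and was called, and the dimmest Acaca probe gave −1.35 (adjusted p = 0.022). The other Scd3 probes gave −2.05 (adjusted p = 0.00158) and −3.16 (adjusted p = 0.00295), so the direction was shared and the size ran from 2.42-fold to 8.96-fold. Within slide 1 the brightest Scd3 probe differed by −2.02 and within slide 2 by −0.53. Only Fasn stayed called without the first db/db array, where Scd1 was at −0.94, Scd3 at −0.85, Elovl3 at −1.44, Elovl6 at −1.26 and Thrsp at −1.76. Without the first WT array, Scd3 (−0.95), Elovl3 (−1.16), Elovl6 (−1.13) and Thrsp (−2.14) were no longer called, and Thrsp was also lost without the second WT array (−1.92).

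On labelled day 14 the db/db wounds were lower in Scd3 and Scd4, 2 of the 10 genes, where 15.7% of all probes were called lower. Scd3 was 3.57-fold lower (−1.84 ± 0.37, adjusted p = 0.00866) and Scd4 2.82-fold lower (−1.50 ± 0.31, adjusted p = 0.00937). Scd4 was no longer called after normexp background correction (−0.94) or quantile normalization (−0.91). Fasn gave −0.90, Elovl3 −1.10 and Acaca −0.55 (adjusted p = 0.0218, below a 2-fold change), and none of these was called. Elovl3 was called lower with slide as a random block (−1.22) and in a fit of the compared arrays alone (−1.103), and Fasn without the first db/db array (−1.16). The other Scd3 probes gave −0.92 (adjusted p = 0.0358) and −0.94 (adjusted p = 0.182), smaller than the brightest. Both db/db arrays were on slide 3 and both WT arrays on slide 4, so no slide held both groups. Slide and group can be told apart here only through the vehicle and estrogen arrays, which were split between these slides. With slide as a fixed block Scd3 and Scd4 stayed called. The share of members called was near that of all probes, whose median was −0.12.

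The question behind the treated groups was what daily estrogen did to the diabetic wound. On labelled day 7, Scd3, Fasn, Scd1 and Elovl6 rose with estrogen over untreated db/db, 4 of the 10 genes, where 5.27% of all probes were called higher. Scd3 rose 3.78-fold (1.92 ± 0.37, adjusted p = 0.015) and Fasn 3.52-fold (1.81 ± 0.39, adjusted p = 0.0237). Scd1 rose 2.52-fold (1.33 ± 0.38, adjusted p = 0.0683) and Elovl6 2.48-fold (1.31 ± 0.49, adjusted p = 0.156). Thrsp gave 1.42 ± 0.74 and Elovl3 0.92 ± 0.57, neither called, and no member was called lower. Of the 10 log2 fold changes, 8 were above 0 and 2, those of Scd2 and Scd4, were below it. The median of the 10 genes was 1.12, against 0.04 over all probes. These values share the db/db arrays with the comparison to WT, so the low db/db levels enter both.

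The Scd3 probes disagreed most here. The second gave 2.25 (4.76-fold, adjusted p = 0.00173) and the dimmest 5.01 (32.3-fold, adjusted p = 0.000549). Within slides 1 and 2 the differences were 2.47 and 1.37 on the brightest Scd3 probe, 5.40 and 4.62 on the dimmest, 1.74 and 1.89 for Fasn, 1.59 and 1.08 for Scd1 and 1.27 and 1.35 for Elovl6. Without the first db/db array, Scd1 (0.85) and Elovl6 (1.08) were no longer called, and Elovl6 was also lost without the second estrogen array (1.04). Acaca gave 0.39 on its brightest probe, while its dimmest probe gave 1.19 and was called (adjusted p = 0.0588).

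Sesame oil alone left none of the 10 genes called against db/db on labelled day 7 by limma, where 4.94% of all probes were called in either direction. Scd1 and Acaca had an unadjusted limma p below 0.05 on their brightest probes (0.0336 and 0.0129), with levels 1.92-fold (0.94 ± 0.38) and 1.34-fold higher, short of a 2-fold change. Elovl3 gave 1.04 ± 0.57 and Elovl6 0.40, and within slides 1 and 2 Elovl3 differed by 0.15 and 1.92 and Elovl6 by −0.28 and 1.08. Without the first vehicle array both were called, at 2.09 and 1.31, and Scd1 was called without the second db/db array (1.42). The 3 Scd3 probes gave 0.18, 0.74 and −0.20. The median of the 10 genes was 0.41.

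Estrogen was then set against its own vehicle, the comparison that holds the oil constant. On labelled day 7, Scd3 and Fasn were higher with estrogen, 2 of the 10 genes, where 4.72% of all probes were called higher. Scd3 rose 3.33-fold (1.73 ± 0.37, adjusted p = 0.035) and Fasn 2.25-fold (1.17 ± 0.39, adjusted p = 0.118). The second Scd3 probe gave 1.52 (adjusted p = 0.0174) and the dimmest 5.21 (adjusted p = 0.00134). Within slides 1 and 2 the differences were 1.91 and 1.56 on the brightest Scd3 probe, 6.05 and 4.38 on the dimmest and 1.0995 and 1.24 for Fasn. Fasn was no longer called without the first vehicle array (0.82) or the second estrogen array (0.75). Scd1 differed by 0.39 with a 95% interval of −0.46 to 1.25, Elovl3 by −0.11 and Elovl6 by 0.92, none of them called. Without the second vehicle array Elovl6 was called higher (1.82), and without the first Elovl3 was called lower (−1.16).

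The last comparisons of treatments were those of labelled day 14. With vehicle, Elovl3, Elovl6, Scd3 and Scd1 rose over db/db, 4 of the 10 genes, where 5.41% of all probes were called higher. Elovl3 rose 6.62-fold (2.73 ± 0.57), Elovl6 3.14-fold (1.65 ± 0.49), Scd3 2.99-fold (1.58 ± 0.37) and Scd1 2.20-fold (1.14 ± 0.38), with adjusted p-values of 0.0694, 0.13, 0.0898 and 0.163. The other Scd3 probes gave 1.85 (adjusted p = 0.0293) and 2.30 (adjusted p = 0.0688). On slide 3, which held both groups, the differences were 2.58, 1.66, 1.52 and 0.83. Scd1 was no longer called after fitting slide as a fixed block (0.98), or without the second db/db array (0.75) or without the second vehicle array (0.83). Thrsp went the other way at −1.02 and was not called, but was called lower without the second db/db array (−1.99), without the second vehicle array (−1.93) and after fitting slide as a fixed block (−1.78).

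With estrogen, Elovl3 and Scd3 rose over db/db on labelled day 14, 2 of the 10 genes, where 2.62% of all probes were called higher. Elovl3 rose 3.17-fold (1.66 ± 0.57, adjusted p = 0.347) and Scd3 3.02-fold (1.60 ± 0.37, adjusted p = 0.156). The second Scd3 probe gave 0.69 and was not called, and the dimmest gave 2.55 (adjusted p = 0.0864). Elovl3 was no longer called without the second db/db array (1.44), without the second estrogen array (1.25) or after fitting slide as a fixed block (1.39). Thrsp was called lower without the second db/db array (−1.997) and after fitting slide as a fixed block (−1.79). The estrogen and vehicle comparisons share their db/db arrays.

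Against vehicle on labelled day 14, Elovl6 was 2.34-fold lower with estrogen (−1.23 ± 0.49, adjusted p = 0.771), 1 of the 10 genes, where 0.514% of all probes were called lower. This call was lost when any of the 4 arrays was left out, with values from −1.32 to −1.13, and within slides 3 and 4 the difference was −1.33 and −1.12. The brightest Scd3 probe gave 0.01 and the dimmest 0.25, whereas the second gave −1.16 and was called (adjusted p = 0.754). The dimmest Acaca probe gave −1.55 and was also called. Scd1 gave −0.88 and Elovl3 −1.06, neither called.

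**Figure D3:**
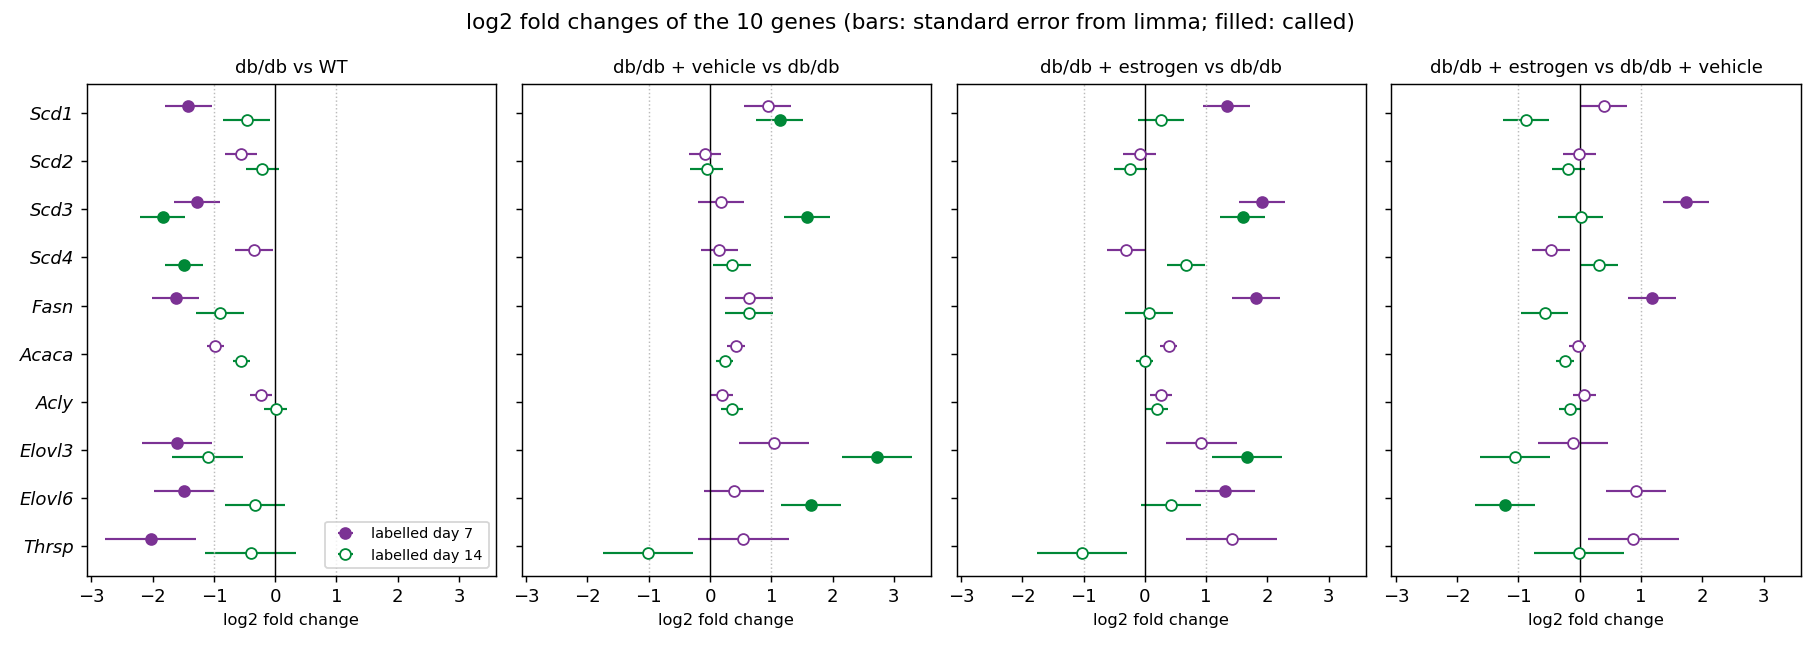
Log2 fold change of the 10 genes (brightest probe) in 4 comparisons, with limma's standard error as bars, purple for labelled day 7 and green for labelled day 14, filled points for called genes and dotted lines at a 2-fold change. On labelled day 7 the called genes lie below 0 for db/db vs WT and above 0 for estrogen vs db/db, and on labelled day 14 Elovl3 with vehicle over db/db (2.73) is the highest point.

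The estrogen effect over vehicle was compared between the labelled days as an interaction. It was larger on day 7 by 2.68 on the second and 4.96 on the dimmest Scd3 probe, both with an adjusted p of 0.0489. On the brightest Scd3 probe the difference was 1.72 (adjusted p = 0.245), for Elovl6 2.14 (adjusted p = 0.266), for Fasn 1.75 (adjusted p = 0.257) and for Scd1 1.27 (adjusted p = 0.388). Day and scan cannot be told apart, but each difference here is between groups scanned together.

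Between the labelled days, all calls but one were lower on day 14. In WT, Scd1 (−1.30, adjusted p = 0.219), Elovl3 (−1.40, adjusted p = 0.321) and Elovl6 (−1.10, adjusted p = 0.357) were lower, 3 of the 10 genes, where 2.45% of all probes were called lower. In db/db, Scd3 (−1.27, adjusted p = 0.0478) and Scd4 (−1.37, adjusted p = 0.0179) were lower, 2 of 10, where 11.3% of all probes were. With estrogen, Scd1 (−1.41, adjusted p = 0.0365), Scd3 (−1.59, adjusted p = 0.0228), Fasn (−1.76, adjusted p = 0.0182) and Thrsp (−1.73, adjusted p = 0.138) were lower, 4 of 10, where 10.9% were. With vehicle, Elovl6 was higher (1.32, adjusted p = 0.11) and Scd4 lower (−1.16, adjusted p = 0.0367), where 2.46% and 9.38% of all probes were called higher and lower. The dimmest Scd3 probe was higher on day 14 with vehicle (2.36, adjusted p = 0.0113), while the brightest gave 0.13. The Scd3 probes also disagreed in db/db and in WT. In db/db the group means went only from −3.88 to −4.14 on the second probe and from −5.39 to −5.53 on the dimmest. In WT, where the brightest was not called, they went from −1.83 to −3.22 on the second probe and from −2.23 to −4.59 on the dimmest.

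Several of these calls between days rested on single arrays or on the processing. In WT, all 3 were lost without the second day 14 array (Scd1 −0.93, Elovl3 −1.22 and Elovl6 −0.83). Elovl3 was also lost without the first day 7 array (−0.95) or the first day 14 array (−1.58), and Elovl6 under these too (−0.74 and −1.38) and under scaling by the median (−0.97). In db/db both were lost without the second day 7 array (Scd3 −0.85 and Scd4 −0.98). Scd3 was also lost under scaling by the median (−0.93) and with the mean of its probes (−0.56). Scd4 was also lost after normexp (−0.82) and quantile normalization (−0.87). Thrsp with estrogen was lost without the second day 7 array (−1.25), without the first day 14 array (−1.12) and under scaling by the median (−1.37). With vehicle, Elovl6 was lost without the first day 7 array (0.41) or either day 14 array (1.31 and 1.32). Scd4 was lost there without the second day 7 array (−0.94), under scaling by the median (−0.87), and after normexp (−0.79) or quantile normalization (−0.79).

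Other enzymes around the pathway were read against the share of all probes called. In db/db against WT on labelled day 7, 8.49% of all probes were called lower and 5.71% higher, and with estrogen over db/db 5.27% were called higher and 4.74% lower. With vehicle over db/db on labelled day 14, 5.41% were called higher and 2.26% lower. Of 25 tested partners in fatty acid synthesis, 4 were lower and 1 higher in db/db than in WT on labelled day 7, with a median of −0.38, the 1 being below the share of all probes called higher. Elovl5 (−1.52, adjusted p = 0.000906) and Elovl4 (−1.48, adjusted p = 0.0443), elongases of polyunsaturated and very long chains, and Acss2 (−1.31, adjusted p = 0.0162), which makes acetyl-CoA from acetate, were among the 4, though a second Acss2 probe gave −0.78 and was not called. With estrogen on that day 3 partners rose over db/db and none fell, with a median of 0.44. Among them were Acss2 (1.55, adjusted p = 0.0128) and the NADPH source Me1 (1.015, adjusted p = 0.0128). Against vehicle on that day estrogen left no partner called higher and 1 called lower, with a median of 0.24. Of all probes, 4.72% were called higher and 4.37% lower there. With vehicle on labelled day 14, Elovl4 (1.73), Elovl7 (1.41) and Hacd2 (1.32), an enzyme of the elongation cycle, rose and Acsl6 (−1.57) fell, all with adjusted p above 0.05.

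Of the 17 transcription factors and cofactors that govern lipogenesis, 3 were higher in db/db than in WT on labelled day 7 and none lower. Of all probes, 5.71% were called higher and 8.49% lower there. The 3 included Srebf2 (2.28, adjusted p = 0.0127) and Usf2 (1.74, adjusted p = 0.00951), but a second probe of each gave 0.14 and 0.59 and was not called. Srebf1, which codes for the SREBP form that drives these enzymes in liver, was not called, at −2.11 and −2.14 in WT, −2.67 and −2.84 in db/db and −2.15 and −2.16 with estrogen on that day. Srebf1 was chosen from the list after its values were seen, and its estrogen and WT arrays lay above those of db/db. Its vehicle arrays are not given here, so estrogen and oil are not told apart in it. With estrogen over db/db on labelled day 7, 2 of the 17 were called lower and none higher, with a median of −0.19. Of all probes, 4.74% were called lower and 5.27% higher. The 2 lower were Srebf2 and Usf2, whose second probes gave −0.66 and −0.55 and were not called. Against vehicle on that day 1 was higher and 1 lower, with a median of −0.08, where 4.72% and 4.37% of all probes were. The 1 higher was Pparg, the master factor of fat cells, at 2.40-fold (1.26, adjusted p = 0.0548). The 1 lower was Usf2, whose second probe gave −0.66 and was not called. On labelled day 14, where 2.38% of all probes were called higher, 1 regulator was higher in db/db than in WT, Srebf2 again (2.21, adjusted p = 0.0109), its second probe giving 0.05. The ChREBP gene Mlxipl was lower there (−1.45, adjusted p = 0.0289), its second probe giving −0.53.

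Of 23 genes of sterol synthesis and uptake, which share SREBP control with the members, 7 rose with vehicle over db/db on labelled day 14 and none fell, with a median of 0.73 and all 7 adjusted p-values above 0.05. Among them were Idi1 (1.48), Lss (1.32, adjusted p = 0.0506), Msmo1 (1.12), Hmgcs1 (1.099) and Sqle (1.05), enzymes of cholesterol synthesis. With estrogen over db/db on labelled day 7 the median was 0.20. In db/db against WT on that day 2 were lower, Idi1 among them (−1.16, adjusted p = 0.0347), and 1 was higher, with a median of −0.53. These counts were near the shares of all probes, 8.49% lower and 5.71% higher. With estrogen against vehicle on that day 2 were lower and none higher, with a median of −0.34, where 4.37% of all probes were called lower.

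Markers of the cells that hold the pathway moved as well. Of 10 tested sebaceous genes, 3 were lower in db/db than in WT on labelled day 7, with a median of −0.77, among them Apoc1 (−1.44, adjusted p = 0.015) and the acyl-CoA synthetase Acsbg1 (−1.31, adjusted p = 0.0376). With estrogen over db/db on that day 4 rose and 1 fell, with a median of 0.61, where 5.27% of all probes were called higher and 4.74% lower. Acsbg1 gave 1.69 (adjusted p = 0.0237), and the gene that fell had an adjusted p above 0.05. With vehicle over db/db 2 rose, Acsbg1 (1.44) and Apoc1 (1.06), and none fell, with a median of 0.64, both adjusted p-values above 0.05 and 2.57% of all probes called higher. With estrogen against vehicle 1 rose and 1 fell, where 4.72% of all probes were called higher and 4.37% lower, the latter gene being Dgat2l6 (−3.10, adjusted p = 0.0429). With vehicle over db/db on labelled day 14, 7 of 10 rose and none fell, where 5.41% of all probes were called higher. The median was 1.40, with values from 1.31 for Apoc1 to 2.43 for Awat1, all with adjusted p above 0.05. None of the 10 was called with estrogen over db/db on labelled day 14 by limma, where the median was 0.69.

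The summed level of the 11 sebaceous genes, in units of the 75th percentile, was 214 to 215 in WT, 63.1 to 108 in db/db, 83.3 to 210 with vehicle and 135 to 168 with estrogen on labelled day 7. For labelled day 14 it was 71.4 to 179 in WT, 44.5 to 52.0 in db/db, 122 to 154 with vehicle and 65.3 to 96.0 with estrogen. Untreated db/db was the lowest on both days, and Far2 was the one gene of the list not well above background in the db/db groups, treated or not. The part of gland content in the levels of the members was not tested.

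Of 14 adipocyte genes, 3 rose with estrogen over db/db on labelled day 7 and none fell, with a median of 1.07, among them the lipoprotein lipase gene Lpl (1.84, adjusted p = 0.0085) and the adrenergic receptor gene Adrb3 (1.93, adjusted p = 0.0305). The other Adrb3 probe gave 0.11 (adjusted p = 0.859) and was not called. Lpl was also higher than with vehicle (1.46, adjusted p = 0.0355). Their summed level on that day was 274 to 402 with estrogen, 202 to 225 in WT, 133 to 235 in db/db and 186 to 196 with vehicle. With estrogen, 8 of the 14 were lower on labelled day 14 than on day 7 and none was higher, where 10.9% of all probes were called lower. In db/db against WT on labelled day 7, 2 of the 14 were higher and 2 lower, with a median of 0.33. Of all probes, 5.71% were called higher and 8.49% lower there. The part of fat cells in the levels of the members was not tested.

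Hair follicle, keratinocyte and neutrophil genes moved with the same comparisons. Of the hair follicle genes tested, 12 of 18 were lower in db/db than in WT on labelled day 7 (median −2.51). With estrogen 18 of 21 rose over db/db (median 2.54) and 13 of 21 over vehicle (median 1.91). Of all probes, 8.49% were called lower in the first of these comparisons, and 5.27% and 4.72% higher in the others. In db/db 6 genes of the list were not well above background on any array of that day. Those tested against db/db entered only through the brighter other group, so these counts and medians favour a low db/db. The hair keratin gene Krt25 was not well above background in db/db and was at least 225-fold lower there than in WT and at least 388-fold lower than with estrogen. The summed hair follicle level ran from 1.40 to 1.97 in db/db, 2.43 to 6.29 with vehicle, 15.8 to 20.0 with estrogen and 6.18 to 44.0 in WT on that day. Of 11 neutrophil genes, 8 were higher in db/db than in WT and 10 fell with estrogen (medians 5.24 and −5.49). Of 11 keratinocyte genes, 4 rose with estrogen on labelled day 7 and 4 with vehicle on labelled day 14 over db/db (medians 0.77 and 1.04). With vehicle over db/db on labelled day 7, 6 of 18 hair follicle genes (median 1.08) and 3 keratinocyte genes (median 1.19) rose. There 5 neutrophil genes fell (median −3.01), and 2.57% of all probes were called higher and 2.37% lower. Estrogen against vehicle on that day gave medians of −0.27 for keratinocyte and −2.90 for neutrophil genes. No skeletal muscle gene of 11 and 1 fibroblast gene of 7 was called in db/db against WT on labelled day 7, and with estrogen over db/db 1 muscle gene fell. The part of these cells in the levels of the members was not tested.

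**Figure D4:**
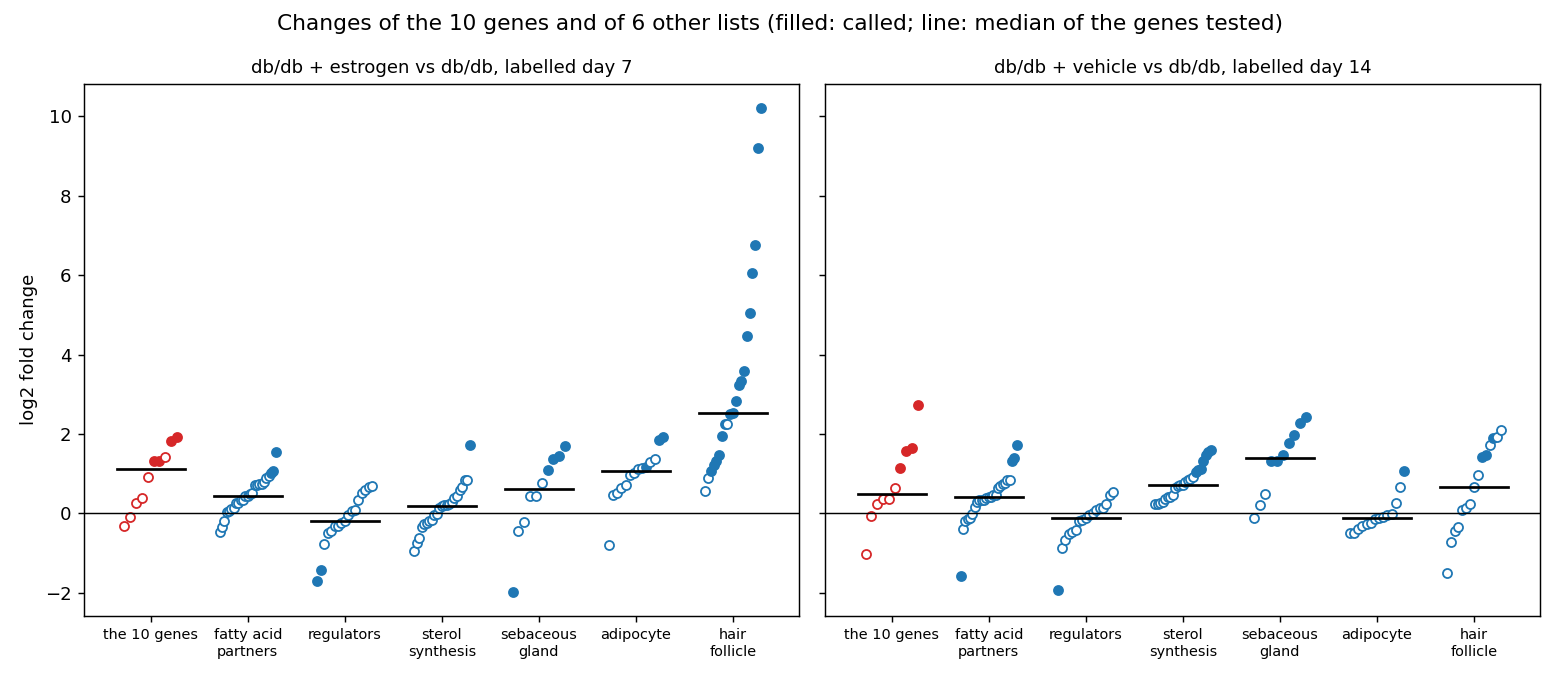
Log2 fold change of the 10 genes (red) and of 6 other lists (blue) with estrogen over db/db on labelled day 7 and with vehicle over db/db on labelled day 14, 1 point for each gene tested, filled where called, with a line at the median of a list. Hair follicle genes reach above all others on the left (median 2.54), where those not above background in db/db have only a lower bound, and sebaceous genes have the highest median on the right (1.40).

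The genes whose pattern over the 16 arrays was nearest to a member were found by the root mean square distance of log2 levels, after each probe was centred on its own mean, among 22111 named probes. For Elovl3 the nearest was Fa2h at 0.34, which hydroxylates fatty acids, followed by Aadacl3, Ces4a, Defb2 and Acot5. For Elovl6 they included Pank1 at 0.26, Hacd2 at 0.32, Cers4 and Mgll, and for Scd1 Hacd2 at 0.28, Trmt9b, Arl4a, E330011O21Rik and Nipsnap1. Hacd2 stood near both. For Fasn they were Kcnu1 at 0.29, Proca1, Lrp4, Tnk1 and Sh3d21, and for Scd3 Wnk4 at 0.38, Csprs, Krtap5-5, Itprid2 and Klk1b3. For Thrsp they were B3galt2 at 0.46, A530016L24Rik, Ccdc13, Car3 and the fat-cell hormone gene Adipoq at 0.49. Among the members themselves, Acaca and Acly lay 0.31 apart, Scd1 and Fasn 0.39 and Elovl3 and Elovl6 0.48, and these distances are small partly where both genes vary little.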

How the data were processed

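Group, labelled day and replicate number came from the sample titles. Each spot of the deposited scanner files has an intensity from which the authors had subtracted background and spatial trends with Feature Extraction 11.0.1.1 without scaling between arrays, and the same files, as deposited, hold other columns that flag outlier, saturated and well-above-background spots. The deposited series matrix holds a ratio, which the authors made in GeneSpring, of the signal to the 75th percentile of the array, as found to within 1% for nearly all its probes, with filters that are not named in the sources used here. It served as an alternative.

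Here outlier spots and controls were left out, spots of a probe were averaged, log2 was taken and the 75th percentile of the array subtracted. Of 39429 probes, 27427 were named through RefSeq accessions. Tested were probes well above background on the 2 arrays of 1 or both groups compared, and a gene was read through its probe with the highest mean. All 8 groups (8 residual degrees of freedom) were fitted together with limma 3.58.1 in R 4.3.3, tested on simulated data, with Benjamini-Hochberg adjustment. Comparisons were those of treatments within a labelled day, of days within a treatment, and their differences between days. Arrays give no counts, so the precision rests on their number.

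The members and the 10 lists (partners, regulators, sterol, sebaceous, adipocyte, hair follicle, keratinocyte, neutrophil, skeletal muscle, fibroblast) were chosen with earlier results of these data known. Named were all members; at most 3 genes for each list and comparison with the largest change among those called with adjusted p below 0.05, or, where there were none, called genes without overlap; and the 5 nearest genes to each member. Not all of them are reported here. Srebf1, Awat1 and Dgat2l6 on day 7 were chosen after their values were seen. Alternatives were normexp (offset 50) on the median pixel intensity, quantile and median scaling, 2 other filters, the series matrix, a floor for dim signals, slide as a fixed block or a random one (statmod 1.5.0), a replicate block, a fit of the compared arrays alone, the mean of probes, the adjusted p as the call, and leaving out each array.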

Additional observations from a re-analysis of the deposited data

Results flagged for a closer look

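For 2 of the 3 Scd3 probes, the effect of estrogen over vehicle in db/db wounds was not the same on the labelled days, by a test of the difference itself. It was larger on labelled day 7 by 2.68 on the log2 scale for probe A_55_P2099594 and by 4.96 for probe A_51_P446045, each with limma's adjusted p = 0.0489. The brightest probe, A_55_P2052759, gave 1.72 with an adjusted p of 0.245. On all 3 probes both estrogen arrays of labelled day 7 lay above both vehicle arrays, and on labelled day 14 they lay below them on A_55_P2099594 and overlapped with or lay within them on the other 2. The day was confounded with the day of scanning.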

How the results depend on the processing

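No change in direction was found for a called gene under any alternative. Of the single-gene values recomputed, 2547 stayed on their side of the call, 83 lost their call and 50 gained one. The counts of members called were 6, 4, 0 and 2 on labelled day 7 and 2, 2, 4 and 1 on labelled day 14, for db/db vs WT, estrogen vs db/db, vehicle vs db/db and estrogen vs vehicle, and 3, 2, 4 and 2 between the days in WT, db/db, estrogen and vehicle. With the adjusted p as the call they were 2 for estrogen vs db/db and 1 for estrogen vs vehicle on labelled day 7, 0 for estrogen vs db/db, 0 for vehicle vs db/db and 0 for estrogen vs vehicle on labelled day 14, and 0 in WT and 1 with vehicle between days. For db/db vs WT on labelled day 7, 4 members had an adjusted p below 0.05: Fasn, Scd1, Scd3 and Acaca, the last below a 2-fold change. Between days with estrogen 3 members did. Normexp and quantile normalization each gave 1 for db/db vs WT on labelled day 14 and 1 between days in db/db and with vehicle. A fit of only the arrays compared gave 2 for estrogen vs vehicle on labelled day 14 and 1 between days with vehicle, and the mean of the probes gave 1 between days in db/db. The cause was not tested.

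Leaving out 1 array gave 1 to 7, 2 to 4, 0 to 2 and 1 to 3 on labelled day 7, 2 to 3, 1 to 2, 4 to 4 and 0 to 1 on labelled day 14, and 1 to 4, 0 to 2, 3 to 4 and 1 to 2 between days, in the same order. The calls of Scd3 in all 5 comparisons between treatments other than db/db vs WT on labelled day 7, of Fasn in db/db vs WT and estrogen vs db/db on labelled day 7, and of Elovl3 and Elovl6 in vehicle vs db/db on labelled day 14 were kept under all alternatives but the adjusted p.

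Scaling by the median in place of the 75th percentile moved the median of all probes for db/db vs WT from −0.05 to 0.15 on labelled day 7 and from −0.12 to 0.28 on labelled day 14, and that of the days in WT, db/db, estrogen and vehicle to 0.11, 0.24, 0.25 and 0.22. The share of calls that were higher for db/db vs WT went from 40.2% to 55.0% (52.0% after quantile normalization) on labelled day 7 and from 13.2% to 40.7% (32.4%) on labelled day 14, and between days from 44.5% to 62.1% in WT, 10.98% to 37.8% in db/db, 22.01% to 52.6% with estrogen and 20.8% to 45.0% with vehicle. Scd2 was then called higher on labelled day 14 than on day 7 with vehicle (1.08) and in db/db. Normexp cut the number of all probes called, from 5468 to 2630 for db/db vs WT on labelled day 14 and from 3023 to 1869 for estrogen vs db/db on labelled day 7. Arrays of different groups share only a replicate number, which on labelled day 7 is also the slide, and deviations of arrays with the same number correlated from −0.375 to 0.333, so the pairing is not established. The replicate block gave 2 members between days in WT and changed no other of these counts. In the differences between the days it ended the calls of Scd1 for estrogen vs vehicle (1.27) and Thrsp for estrogen vs db/db (2.44). Slide as a fixed block could not be fitted between days. Signal over background limited 1 member probe, the dimmest of Acaca.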
